A study of Mus musculus with 3 samples.

Results

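The strongest Foxf2 binding regions of the embryonic mouse tongue were taken as the peaks with a score of 60 or more in the deposited peak list. There were 883 such regions, called strong peaks here, among the 25704 peaks on the main chromosomes (3.44%). The series profiled chromatin bound by Foxf2 in tongues of E12.5 embryos by ChIP-seq. The ChIP samples were 2 libraries precipitated with an antibody against FLAG, and the control was 1 unprecipitated input library. Embryos of all 3 samples were homozygous for a 3xFLAG tag on the endogenous Foxf2 protein (Foxf2FLAG/FLAG), made by CRISPR/Cas9 editing, and strain and sex are not given in the labels. Each sample label gives 75 dissected tongues, per library or in total, so tissue was pooled, and no ChIP from untagged tissue is among the samples.

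Foxf2 is a transcription factor of the forkhead family, whose winged-helix domain binds DNA around the letters TAAACA. It is made in the mesenchyme of the developing palate and tongue, and mice without it are born with a cleft palate. Forkhead factors can act at enhancers far from the genes they control, so the gene nearest to a bound region is a label for the region and not a known target.

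Sequences are printed for the regions on which the descriptions below turn, from the GRCm38 (mm10) genome. Capitals mark the forkhead core, taken as GTAAACA or else ATAAACA or else GTAAATA or else ATAAATA on either strand, so that GTAAACA on the minus strand reads TGTTTAC. The first 4 are central 121-base windows of peaks among the 6 with the highest scores, and show several matches in a single peak, on both strands near Hes1 and Gpbp1 and on the minus strand alone near Foxf2 and in Eya2. Each is named by the gene whose protein-coding transcription start site (TSS) is nearest.
Hes1, chr16:30096603-30096723, plus strand: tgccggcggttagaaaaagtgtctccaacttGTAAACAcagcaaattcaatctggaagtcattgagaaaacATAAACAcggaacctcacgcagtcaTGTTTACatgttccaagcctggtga
Foxf2, chr13:31632531-31632651, plus strand: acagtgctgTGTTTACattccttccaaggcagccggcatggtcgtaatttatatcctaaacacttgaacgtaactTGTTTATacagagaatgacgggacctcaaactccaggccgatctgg
Eya2, chr2:165741133-165741253, plus strand: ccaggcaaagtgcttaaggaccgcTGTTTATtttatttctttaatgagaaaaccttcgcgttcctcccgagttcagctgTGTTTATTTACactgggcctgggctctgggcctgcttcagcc
Gpbp1, chr13:111397709-111397829, plus strand: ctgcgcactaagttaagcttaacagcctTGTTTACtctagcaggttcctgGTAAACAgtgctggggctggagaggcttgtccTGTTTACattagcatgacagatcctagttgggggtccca

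The next windows are shown because their matches recur in tandem. The Dock9 and Dnaic1 peaks were among the 8 highest-scored, and the Tmem135 peak lay wholly in repeat-masked sequence.
Dock9, chr14:121666959-121667079, plus strand: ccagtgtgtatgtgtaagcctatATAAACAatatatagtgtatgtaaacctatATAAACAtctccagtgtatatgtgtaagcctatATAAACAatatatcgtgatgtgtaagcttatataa
Dnaic1, chr4:41630257-41630417, plus strand: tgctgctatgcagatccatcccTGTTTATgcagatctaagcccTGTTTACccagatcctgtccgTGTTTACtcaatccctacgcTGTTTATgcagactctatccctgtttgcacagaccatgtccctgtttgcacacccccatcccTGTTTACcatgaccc
Tmem135, chr7:88951947-88952107, plus strand: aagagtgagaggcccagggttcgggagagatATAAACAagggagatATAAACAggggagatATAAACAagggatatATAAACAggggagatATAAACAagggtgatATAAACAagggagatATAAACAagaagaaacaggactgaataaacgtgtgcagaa

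The next 5 windows belong to high-scoring peaks with no forkhead core in their central 200 bp. Here capitals mark the related words CTAAACA and TTAAACA, the CTCF sequence, or the words CAGCACC and GGACAG, which make up the ends of the sequence bound by the neuronal repressor REST. The window near Postn holds none of these.
Krtap5-4, chr7:142334410-142334530, plus strand: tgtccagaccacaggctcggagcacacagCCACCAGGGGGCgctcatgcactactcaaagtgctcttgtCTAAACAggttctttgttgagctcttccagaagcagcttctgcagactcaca
Dnajb9, chr12:42972894-42973014, plus strand: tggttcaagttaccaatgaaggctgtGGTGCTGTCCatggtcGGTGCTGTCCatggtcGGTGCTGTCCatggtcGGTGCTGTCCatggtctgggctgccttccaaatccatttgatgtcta
Unc5a, chr13:54971002-54971122, plus strand: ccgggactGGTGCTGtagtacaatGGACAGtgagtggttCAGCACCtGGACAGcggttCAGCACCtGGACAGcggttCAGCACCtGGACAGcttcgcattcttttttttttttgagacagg
Igsf21, chr4:140259050-140259170, plus strand: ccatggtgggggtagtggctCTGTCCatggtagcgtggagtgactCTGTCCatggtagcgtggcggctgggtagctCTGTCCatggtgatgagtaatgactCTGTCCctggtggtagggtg
Postn, chr3:54406678-54406798, plus strand: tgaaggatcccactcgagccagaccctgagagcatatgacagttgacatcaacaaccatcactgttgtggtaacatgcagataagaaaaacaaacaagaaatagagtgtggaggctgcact

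The last set gives 61 bases around the match nearest to the peak centre at genes of signalling, of the mesenchyme and of connective tissue, followed by a pair of promoters, with capitals again for the forkhead core.
Ptch1, chr13:63641821-63641881, plus strand: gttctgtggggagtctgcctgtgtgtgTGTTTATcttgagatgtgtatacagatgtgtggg
Gas1, chr13:60173701-60173761, plus strand: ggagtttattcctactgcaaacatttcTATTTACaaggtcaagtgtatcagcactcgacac
Jag1, chr2:137236879-137236939, plus strand: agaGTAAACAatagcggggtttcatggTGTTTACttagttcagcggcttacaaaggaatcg
Tgfbr3, chr5:107269096-107269156, plus strand: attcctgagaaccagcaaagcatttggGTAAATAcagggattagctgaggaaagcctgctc
Smad6, chr9:63915179-63915239, plus strand: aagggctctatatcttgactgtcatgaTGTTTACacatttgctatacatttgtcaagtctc
Twist1, chr12:34052322-34052382, plus strand: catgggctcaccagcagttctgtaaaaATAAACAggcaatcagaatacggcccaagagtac
Igfbp2, chr1:72784225-72784285, plus strand: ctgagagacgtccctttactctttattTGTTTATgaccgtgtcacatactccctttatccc
Col1a2, chr6:4489441-4489501, plus strand: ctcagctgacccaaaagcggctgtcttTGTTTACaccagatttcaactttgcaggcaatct
Foxf1, chr8:120981108-120981168, plus strand: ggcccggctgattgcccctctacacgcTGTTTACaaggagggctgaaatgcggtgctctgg
Tenm3, chr8:48555272-48555332, plus strand: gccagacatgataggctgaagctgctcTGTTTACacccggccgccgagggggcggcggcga
Pik3ca, chr3:32397106-32397166, plus strand: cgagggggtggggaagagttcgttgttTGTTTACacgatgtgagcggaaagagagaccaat

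The strong peaks were selected on the score of the authors' peak caller, and the focus ratio comes from the same caller, so both are given as a description. Scores of the strong peaks ran from 60 to 243.9 with a median of 74.8, while all 25704 peaks ran from 10.1 to 243.9 with a median of 16.2. Of the strong peaks 348 reached 80, 165 reached 100, 32 reached 150 and 6 reached 200. At the edge of the selection, 44 peaks scored 60 to 60.9, and 36 of them (81.8%) held the core. Just outside it 37 peaks scored 59 to 59.9, and 29 of them (78.4%) held the core. The focus ratio, read as a higher value for a sharper peak, had a median of 0.835 in strong peaks and 0.783 in all peaks. Binding in more cells of the tissue and stronger recovery in each cell cannot be told apart in a score. The deposited values hold no column for a single library, so agreement between the ChIP libraries was not tested, the depth is unknown, and the cell types of the tongue could not be checked against markers. Peaks and genes are not replicates, so shares are given with exact (Clopper-Pearson) 95% intervals that cover the counting of peaks only, and no p-value is given.

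Most strong peaks held the forkhead core. The central 200 bp held it in 777 of 883 strong peaks, 88.0% (interval 85.7 to 90.1), beside 72.5% of all peaks. Windows of the same width 2000 bp to either side of the strong peaks held it in 16.6% and 19.4%. The word GTAAACA was found in 370 strong peaks, 41.9% (interval 38.6 to 45.2), beside 27.4% of all peaks, and in 3.62% and 4.76% of the side windows. Its longer form TGTAAACA was in 27.7% of strong peaks and 15.4% of all peaks. The remaining core words differed less between the sets: ATAAACA was in 50.8% of strong peaks and 38.1% of all peaks, GTAAATA in 10.8% and 9.79%, and ATAAATA in 16.2% and 13.5%. Core words can overlap and a peak can hold several of them, so these shares add to more than the share with any core.

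Strong peaks more often carried several matches. At least 2 core matches, counted on both strands with overlaps, were found in 357 strong peaks, 40.4% (interval 37.2 to 43.8), beside 21.3% of all peaks. At least 3 were found in 11.9% (interval 9.83 to 14.2) beside 4.5%, and at least 5 in 11 strong peaks, 1.25% (interval 0.623 to 2.22) beside 0.335%. In the other direction 420 strong peaks (47.6%) held a single match, beside 51.3% of all peaks, and 106 (12%) held none, beside 27.5%. Among the strong peaks the median score was 72.5 with no match, 73.3 with 1, 77.65 with 2 and 83.2 with 3. It followed no order in the few with more, at 69.6 for the 7 peaks with 4, 101.8 for the 4 with 5, 61.5 for the 3 with 6 and 78.6 for the 4 with 7.

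The number of matches continued to climb with the score inside the selection. At least 2 matches were present in 17.6% of peaks scored 10 to 15 and in 29.2% of those scored 40 to 60. The share was 33.6% (interval 29.6 to 37.8) at 60 to 80, 45.9% (38.5 to 53.4) at 80 to 100 and 51.9% (43.1 to 60.6) at 100 to 150. Of the 32 peaks at 150 or more, 24 held at least 2 matches, 75.0% (interval 56.6 to 88.5). The share with any core was 85.2% at 60 to 80, 92.3% at 80 to 100, 91.7% at 100 to 150 and 93.8% above that. GTAAACA reached 51.1% at 100 to 150 and 43.8% (interval 26.4 to 62.3) in the highest band, whose interval overlaps the one below. GC content did not move with the score: the median was 44.0% at 10 to 15 and 43.5% at 150 or more.

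**Figure D1:**
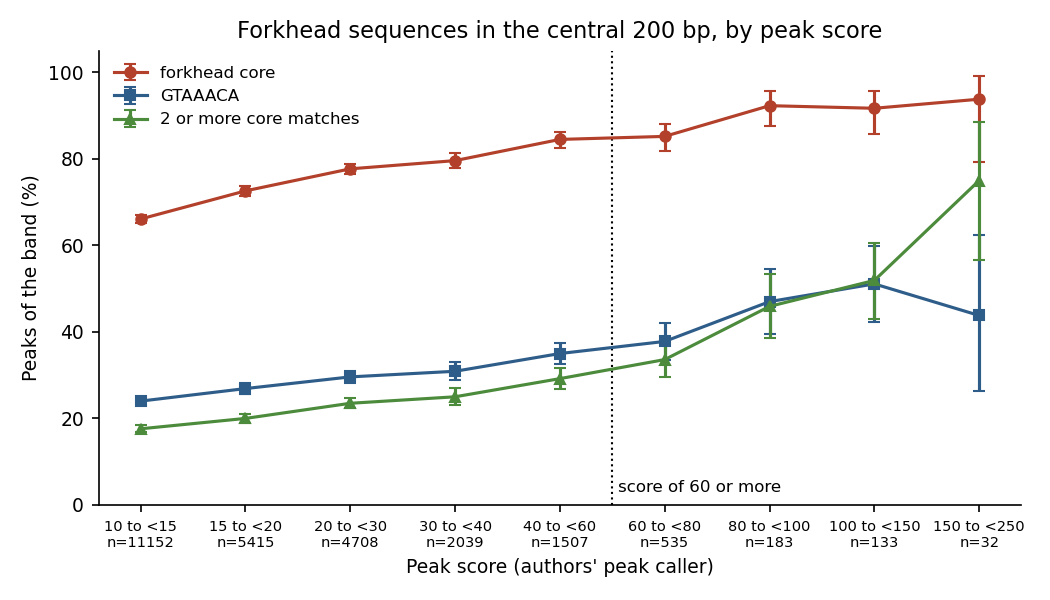
Share of peaks (vertical axis, %) whose central 200 bp hold any forkhead core, GTAAACA, or at least 2 core matches, by band of peak score (horizontal axis, with the number of peaks in each band); bars are exact 95% intervals and the dotted line marks a score of 60. The share with at least 2 matches climbs from 17.6% in the lowest band to 75.0% in the highest, while the share with any core stays between 91.7% and 93.8% above a score of 80.

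Matches in strong peaks lay at the peak centre no more tightly than in the whole list. The match nearest to the centre was a median of 11 bp away in the 777 strong peaks that held one, and 11 bp in the 18641 peaks of the list that did. Within 20 bp lay 72.1% in both sets, and beyond 50 bp lay 4.76% of the strong peaks and 5.03% of all peaks. The nearest match ran on the plus strand in 401 strong peaks and on the minus strand in 376. Just before the core, T stood at 48.0% of the nearest matches of strong peaks and 41.4% of those of all peaks. At the core's variable position 6, C stood at 83.1% and 78.7%. Bases after the 7 of the core differed as well. At position 8, C stood at 31.1% and 24.9%. At position 10, G stood at 35.4% and 28.4%, and A at 15.1% and 22.1%.

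**Figure D2:**
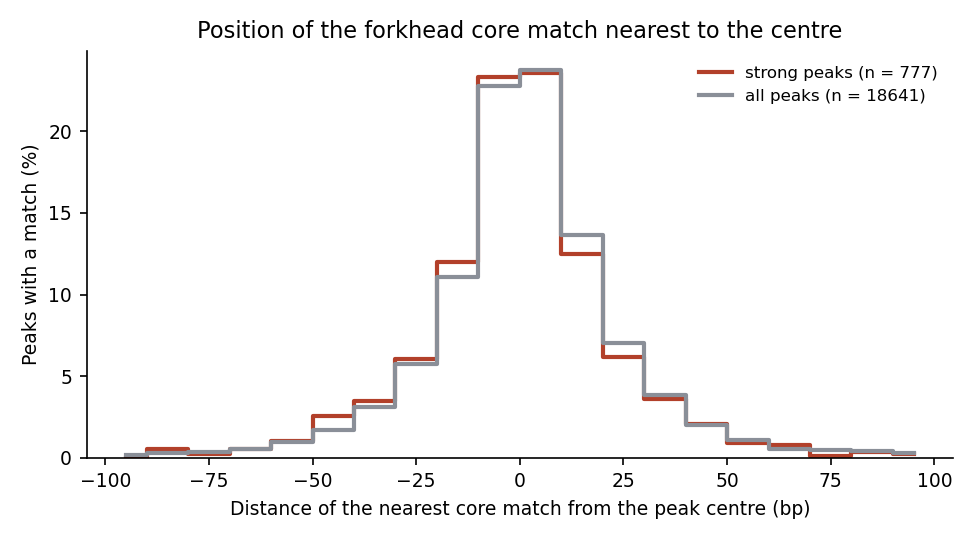
Distribution of the distance (horizontal axis, bp, in bins of 10 bp) between the peak centre and the nearest forkhead core match, as a share of the peaks with a match (vertical axis, %), for the 777 strong peaks and the 18641 of all peaks. The outlines nearly coincide, with 48.0% of strong peaks and 48.3% of all peaks within 10 bp of the centre.

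Of 502 pairs of adjacent matches in strong peaks, 284 (56.6%) pointed the same way, 112 diverged and 106 converged. In all peaks 58.8% of 7079 pairs pointed the same way. Overlapping pairs made up 8.57% of the pairs in strong peaks and 14.0% in all peaks. Starts 4 bases apart on the same strand made up 5.58% and 10.5%. Starts 15 bases apart made up 3.39% and 3.94%, and the 17 such pairs of strong peaks came from 5 peaks, with repeat-masked bases in 15 pairs.

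Of the 11 strong peaks with at least 5 matches, those in Dock9 and Dnaic1 and near Tmem135 hold matches in tandem in the windows printed above. The Dock9 peak (score 208.1, intron, 31.4 kb from the TSS) held 7 matches, none of them GTAAACA. Dock9 encodes an exchange factor for the GTPase Cdc42. The Dnaic1 peak (score 188.8) held 5 matches, 3 of them GTAAACA, lay in no repeat-masked sequence and had a focus ratio of 0.881. Dnaic1 encodes an intermediate chain of the dynein of motile cilia. The Tmem135 and Npr3 peaks, with 7 and 6 matches, scored 81.4 and 61.0 and were repeat-masked over 100% of their windows. Repeat content did not set strong peaks apart as a whole, with a mean of 10.8% of masked bases in strong peaks and 13.1% in all peaks. Among the 357 strong peaks with no masked base, 39.2% still held at least 2 matches and 50.1% held GTAAACA, beside 17% and 30.3% of the 9451 such peaks in the list.

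The 106 strong peaks without the core were of several kinds. In 51 of them (48.1%) the window held CTAAACA or TTAAACA, which differ from the core at a single base, beside 29.5% of the 7063 core-less peaks of the list. A core lay within a wider 400-bp window in 23 (21.7%, beside 15.4%). The REST word, CAGCACC and GGACAG separated by any 2 bases on either strand, was in 6 of the 106 (5.66%), beside 0.496% of all core-less peaks. Over the whole selection this was 0.68% of strong peaks (interval 0.25 to 1.47), beside 0.179% of all peaks, and all 6 lacked the core. None of the side windows 2000 bp away held the word. None of these sequences, nor the CTCF sequence, was found in 34 of the 106 (32.1%), beside 58.0% of all core-less peaks. For this count REST was taken as the looser pair of words described below, which was chosen after the sequences had been read. Besides those described below, the highest-scored of the 106 lay in an intron of Fhod3 (128.3), an actin-assembling formin gene, and nearest to Atp23 (115.7), Lmo4 (110.6), a LIM-only transcription co-factor gene, Postn (107.0), Rps14 (106.9) and Twistnb (105.5).

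The peaks with REST sequence were sharp. Those 6 had focus ratios from 0.856 to 0.971, with a median of 0.949, beside a median of 0.835 for strong peaks without the core. They were nearest to Swsap1 (score 105.3), Npas4 (84.7, a transcription factor gene switched on by neuronal activity), Kcnk9 (77.6, a potassium channel), Slc2a8 (68.8), Gm20715 (61.4) and Celf4 (60.2, a neuronal RNA-binding protein), and were named after their values were seen. A looser search, CAGCACC followed within 12 bases by GGACAG, was chosen after the sequences had been read and found 9 strong peaks, all without the core. The looser search added the array nearest to Dnajb9 (score 157.7, focus ratio 0.966, 1237 kb from the TSS), with 4 copies of each word in its window. Within each unit of this array the words share the letters CAG, with GGACAG first, so the pair was matched across neighbouring units. Also added were the array in an intron of Unc5a (112.5, focus ratio 0.972), with 5 copies of GGACAG and 4 of CAGCACC, and a peak nearest to Ppp6c (60.4). Unc5a encodes a netrin receptor of neurons. The peak nearest to Igsf21 (108.8) had 7 copies of GGACAG and none of CAGCACC. Whether these regions were recovered through Foxf2 was not tested, since no ChIP from untagged tissue is among the samples.

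CTCF sequence was no more frequent in strong peaks than in the list. It was in 13 strong peaks, 1.47% (interval 0.786 to 2.5), beside 1.43% of all peaks. Of these, 12 also held the forkhead core. The exception was the highest-scored, nearest to Krtap5-4 (score 179.2, focus ratio 0.964), which lay in an intron of Ifitm10 and held the related word CTAAACA beside the CTCF sequence. The next 4 lay nearest to Nedd4 (106.9), Col4a3 (95), Prkcq (88.1) and Hdhd2 (86.3).

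Sequences of most other factor families were about as frequent in strong peaks as in the list. Of the E-boxes, bound by factors such as Twist1, CATCTG was in 30.4% of strong peaks (interval 27.3 to 33.5) and 28.0% of all peaks, and CAGCTG in 19.5% and 18.7%. The spaced double E-box of Twist factors was in 9 strong peaks, 1.02% (interval 0.467 to 1.93), beside 0.525% of all peaks. The TEAD word GGAATG was in 15.5% and 15.1%, the SMAD word CAGAC in 46.5% and 44.2%, and the TALE homeodomain word TGACAG in 18.3% and 17.9%. The GLI word GGGTGGTC, read by the Gli effectors of Hedgehog signalling, was in 4 strong peaks, 0.453% (interval 0.124 to 1.16), beside 0.564%. The homeodomain word TAATTA was in 4.3% of strong peaks (interval 3.06 to 5.86) and 6.07% of all peaks. These words were searched on both strands in the same windows, and short words overlap one another by their letters. Windows 2000 bp to either side of the strong peaks held CATCTG in 15.6% and 14.3%, CAGCTG in 8.61% and 8.38%, and GGAATG in 10.5% and 10.4%. They held CAGAC in 37.5% and 39.2%, TGACAG in 15.6% and 13.7%, the double E-box in 0.34% and 0.113%, and the GLI word in 0.227% and 0.34%. TAATTA was in 5.78% and 5.21% of them, both inside its interval for strong peaks, so no difference is read from it. Some words searched but not listed above were less frequent in strong peaks than in these windows, unlike the E-box and TEAD words. The nuclear receptor half-site was in 6.12% of strong peaks (interval 4.63 to 7.9), beside 11.6% and 14.5% of the windows. The NFY word was in 20.2% (interval 17.6 to 23.0), beside 26.2% and 25.7%.

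Strong peaks lay less often near gene starts than the list as a whole. Promoters, 1000 bp upstream to 100 bp downstream of any annotated transcript start, held 58 of them, 6.57% (interval 5.03 to 8.41), beside 8.52% of all peaks. Introns held 423 (47.9%, interval 44.6 to 51.3, beside 45.4%) and intergenic sequence 376 (42.6%, interval 39.3 to 45.9, beside 40.7%). Untranslated regions held 2 strong peaks and coding exons 2. Of the intronic strong peaks 284 (67.1%) had their host gene's own TSS as the nearest. Within 10 kb of a protein-coding TSS lay 134 strong peaks, 15.2% (interval 12.9 to 17.7), beside 20.9% of all peaks, and the median distance was 61.6 kb for strong peaks and 51.3 kb for all peaks. Beyond 500 kb lay 26 strong peaks (2.94%), beside 4.58%. The promoter share was 9.63% at a score of 10 to 15 and between 7.16% and 8.1% in the bands from 15 to 60. It was 6.17% at 60 to 80 and 8.2% at 80 to 100. Median distances were 46.3 kb at 10 to 15, 60.1 kb at 40 to 60, 65.4 kb at 60 to 80 and 47.3 kb at 100 to 150. Neither measure moved steadily with the score, and peaks just below the threshold were close to the strong peaks.

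**Figure D3:**
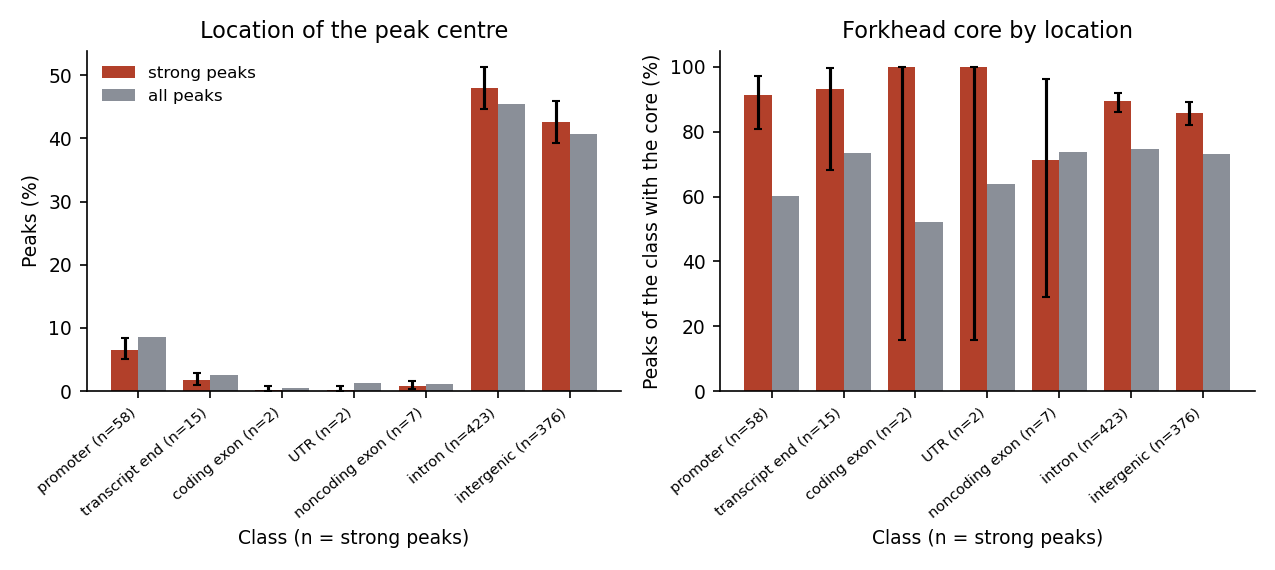
Left, share of strong peaks and of all peaks (vertical axis, %) by the annotation at the peak centre; right, share of the peaks of each class that hold the forkhead core (vertical axis, %); black bars are exact 95% intervals of the strong peaks, whose numbers stand under each class. Promoters hold 6.57% of strong peaks and 8.52% of all peaks, and the core is in 91.4% of strong promoter peaks and 60.1% of all promoter peaks.

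The strong promoter peaks carried the core as often as strong peaks elsewhere. It was in 53 of the 58, 91.4% (interval 81.0 to 97.1), beside 60.1% of all promoter peaks, while it was in 89.4% of intronic and 85.9% of intergenic strong peaks. GC content of strong promoter peaks had a median of 54.2%, beside 53.0% for all promoter peaks. The start belonged to a protein-coding transcript in 41 of the 58. The highest-scored lay at Fam53c (score 209.7, chr18:34759091-34759303), followed by Tenm3 (135.7), which encodes a teneurin adhesion receptor, and Colec10 (131.0), which encodes a secreted collectin. Next came Tfap4 (127.5), a helix-loop-helix transcription factor, Pik3ca (123.8), the catalytic subunit of a phosphoinositide kinase, and 2010109A12Rik (109.4). Each of these 6 held a single core match, and in all 6 it was GTAAACA. Rps14 (106.9), which encodes a ribosomal protein, had a promoter peak without the core. The following pair lay at starts of noncoding transcripts and were nearest to Gm6793 (103.6) and Pik3r1 (102.5). Sox5 (101.0), a transcription factor of cartilage formation, completed the first 10.

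The 20 highest-scored peaks, from 159.5 to 243.9, held the core in 19 cases and at least 2 matches in 17, and 9 lay between genes and 9 in introns. The peak near Hes1, a repressor downstream of Notch, held 3 matches, 2 of them GTAAACA. The peak 6.78 kb downstream of the Foxf2 TSS, at 231.2, held 2 and was 45790 bp from the next peak. Both peaks were free of repeat-masked bases, with 51.0% GC. Eya2 (203.4, 3 matches) encodes a transcriptional co-activator that partners homeodomain proteins, and Gpbp1 (201.4), whose 3 matches were all GTAAACA, encodes a protein that binds promoters rich in G and C. Sptssa (191.9) encodes a small subunit of serine palmitoyltransferase and had a second strong peak of 136.4. Setbp1 (186.9) encodes a nuclear SET-binding protein. Usp29 (185.8) encodes a ubiquitin-specific protease and lies in an imprinted region.

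Lower in these 20, Igfbp2 (185.4) encodes a binding protein of insulin-like growth factors, and its peak lay 40.2 kb upstream with 1 match. The peak nearest to Twist1 (181.9, chr12:34052284-34052496) lay 94.7 kb downstream of its TSS at a transcript end of the neighbouring Hdac9, and held 3 matches, none of them GTAAACA. Twist1 is a helix-loop-helix factor of the cranial mesenchyme. The peak in an intron of Iscu (171.2), an iron-sulphur cluster scaffold gene, was 1.04 kb from the TSS. The others were nearest to Ercc6l2 (174.5), Ccdc171 (169.7), Capn13 (169.2), Banp (169.1), Bbx (168.0) and Vwa3b (159.5), each with 2 or 3 matches.

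Strong peaks had company of any score slightly more often than the list as a whole. Another peak lay within 10 kb of 364 strong peaks, 41.2% (interval 38 to 44.6), beside 36.7% of all peaks. Below the threshold the share was 32.4% at a score of 10 to 15, 37.8% at 15 to 20 and 40.3% at 20 to 30. It was 42.5% at 30 to 40 and 41.9% at 40 to 60, so strong peaks did not stand apart from those just below the threshold. Inside the selection the share was 44.5% at a score of 60 to 80 (interval 40.2 to 48.8) and 38.8% at 80 to 100 (31.7 to 46.3). It was 33.8% at 100 to 150 (interval 25.9 to 42.5) and 31.2% at 150 or more (16.1 to 50). These values fall with the score, but the intervals of the bands overlap. Linked at gaps of up to 100 kb, the 883 strong peaks formed 772 runs, of which 684 were single peaks, 72 were pairs and 16 held 3 or more.

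The 4 longest runs, of 4 or 5 strong peaks, lay on chromosomes 13 and 6. A run of 4 in 150.1 kb lay around Ptch1, the Hedgehog receptor, and a run of 5 in 87.9 kb lay farther along chromosome 13, nearest to Ercc6l2 and Hsd17b3. At Ptch1 the 4 strong peaks scored 147.4 (76.1 kb upstream), 87.6 (5.82 kb downstream, in an intron), 66.1 (100.1 kb upstream) and 63.3 (48.8 kb downstream). All but the one of 66.1 held a core. The run nearest to Ercc6l2 and Hsd17b3, a steroid dehydrogenase gene, scored 174.5, 86.6, 85.2, 75.3 and 67.3, and all 5 peaks held the core. A second run of 5, in 121.7 kb on chromosome 6, flanked Col1a2, a chain of type I collagen, and its neighbour Casd1, with scores of 78.4, 73.1, 68.3, 66.1 and 64.6, of which 4 held the core. The third, in 111.9 kb of chromosome 13, lay nearest to Foxd1 (88.5) and the predicted gene Gm10320 (89.4, 72.3, 70.5 and 62.9). Foxd1 is itself a forkhead gene.

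**Figure D4:**
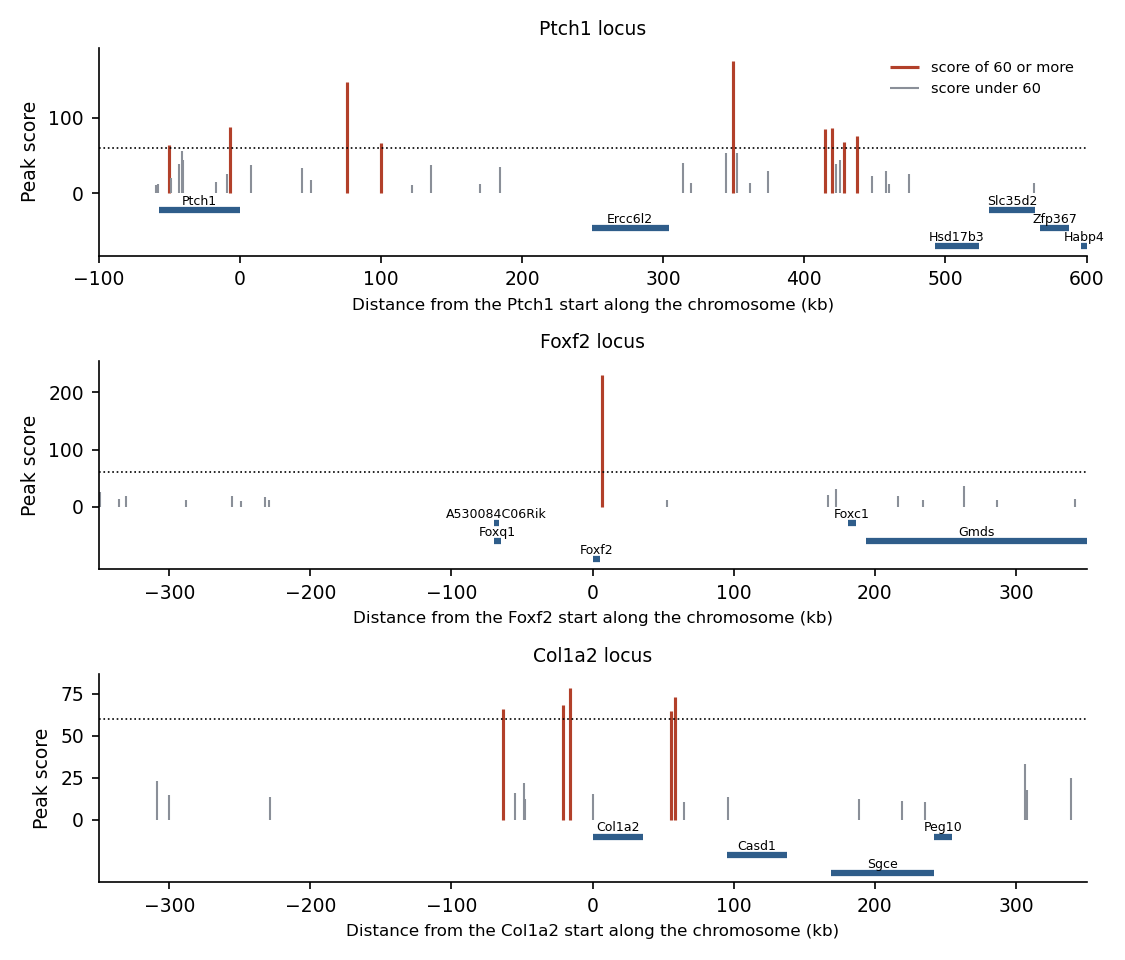
Peaks around Ptch1, Foxf2 and Col1a2 by their distance along the chromosome from the gene's start (horizontal axis, kb) and their score (vertical axis); red lines are strong peaks, grey lines the other peaks, the dotted line a score of 60 and blue bars protein-coding genes. The Ptch1 window holds both runs on that stretch of chromosome 13, with 4 and 5 strong peaks, whereas Foxf2 has a single strong peak of 231.2 and Col1a2 is flanked by 5 between 64.6 and 78.4.

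Strong peaks had 733 different nearest genes among the 21938 that code for protein (3.34%). Of these, 616 had 1, 91 had 2, 19 had 3 and 7 had 4. Besides Ptch1, Gm10320 and Hsd17b3, the genes with 4 were Slc14a2 (highest score 106.5), a urea transporter, Hmga2 (87.2), a chromatin architectural protein, Zfp36l1 (75.3), an mRNA decay factor, and Tle4 (70.9), a Groucho-type co-repressor. Of the genes with 3, the highest scores were at Gm12728 (152.9), Sdc2 (132.0), which encodes the heparan sulphate proteoglycan syndecan-2, and Arhgap28 (131.3). The 26 genes with 3 or more came to 5 when genes of all biotypes were allowed as the nearest, and to 6 when only strong peaks within 100 kb of the TSS counted. A gene's count grows with the sequence nearest to its TSS, which was not matched here.

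The lists of signalling and tissue genes that follow were chosen with earlier results of these data known, so that their shares are a description. No gene with a strong peak stood in more than 1 list. Among the 18 lists that of tendon and connective tissue genes had the highest share, with a strong peak at 12 of 26 genes, 46.2% (interval 26.6 to 66.6), beside 3.34% of all genes. Of its 137 peaks 17 were strong, 12.4% (interval 7.4 to 19.1), beside 3.44% of all peaks. Col1a2 had 3 strong peaks. Postn, which encodes the matrix protein periostin, had 2, of 107.0 without the core and 60 with it, 45.6 and 56.0 kb downstream. Col6a3 and Col5a1, collagens of the interstitial matrix, had 2 each, led by 78.8 and 67. Mkx, a tendon transcription factor, had 1 of 112.2 in an intron, and Col1a1, the partner chain of Col1a2, 1 of 107.9, 39.3 kb upstream with 2 GTAAACA matches.

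Of the Hedgehog genes 6 of 18 had a strong peak, 33.3% (interval 13.3 to 59), and 10 of the list's 92 peaks were strong, 10.9% (interval 5.34 to 19.1). Besides Ptch1, the co-receptor gene Gas1 had 2, of 124.1 at its transcript end 3.2 kb downstream and 66.5 upstream, both with the core. The co-receptor gene Cdon had 1 in an intron (82.5). Hhat, which attaches palmitate to the ligands, had 1 (68.6), Disp1, which releases them, had 1 in its promoter (64.8), and the transcription factor gene Gli2 had 1 in an intron (62.6) with 2 GTAAACA matches. All 5 of the strong peaks at Gas1, Cdon, Hhat and Gli2 held the core, as did that at Disp1.

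In the Notch list 2 of 22 genes had a strong peak (9.09%, interval 1.12 to 29.2), and 5 of 79 peaks were strong, 6.33% (interval 2.09 to 14.2). These intervals include the 3.34% of all genes and the 3.44% of all peaks. Hes1 had a second strong peak of 70.4 at 60.5 kb downstream. Jag1, which encodes a Notch ligand, had 3 strong peaks of 73.6, 73.4 and 65.9, between 120.3 and 343.0 kb upstream, all with the core. In the TGF-beta list 2 of 19 had one (10.5%, interval 1.3 to 33.1), with 4 of 101 peaks strong, 3.96% (interval 1.09 to 9.83). The intervals of this list also include the shares of all genes and of all peaks. Tgfbr3, the co-receptor betaglycan, had 3 in introns (92.6, 78.8 and 61.9), and Tgfbr2, the signalling receptor, had 1 (69.7). No gene of the 14 in the HGF and MET list had a strong peak, beside 3.34% of all genes. A count of 0 allows a share of up to 23.2% at the upper bound of its interval. Weaker peaks were nearest to 5 of the 14 (35.7%), near the 37.3% of all genes that had a peak of any score.

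Of the other signalling lists, WNT had strong peaks at 10 of 40 genes (25%, interval 12.7 to 41.2), BMP at 4 of 23 (17.4%, interval 4.95 to 38.8) and FGF at 2 of 22 (9.09%). Their strong peaks were 13 of 232, 4 of 130 and 3 of 103 peaks, shares of 5.6% (interval 3.02 to 9.39), 3.08% (0.845 to 7.69) and 2.91% (0.605 to 8.28), and each interval includes the 3.44% of the whole list. In the WNT list Tcf7l2, a transcription factor of the pathway, had 3, led by 77.6, and the secreted antagonist gene Sfrp1 had 2 (101.1 and 87.7). Dkk2, another antagonist, had 1 of 89.8 and Rspo1, which encodes a secreted enhancer of WNT signalling, 1 of 76.2. In the BMP list Smad6, an inhibitory SMAD, had 1 of 152.1, 106.8 kb downstream, and Bmp5 (70.6), Acvr2a (67.6) and Bmp2 (64.3) followed. Fgfr2, a receptor, had 2 of 132.9 and 121.1, and the ligand gene Fgf1 had 1 of 67.6.

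Transcription factor genes of the craniofacial mesenchyme had a strong peak at 15 of 49 (30.6%, interval 18.3 to 45.4), yet 20 of their 427 peaks were strong, 4.68% (interval 2.88 to 7.14), an interval that includes the 3.44% of all peaks. Nr2f2, an orphan nuclear receptor, had 3, led by 84.8 in a peak with 6 core matches. Ebf1 (102.6), Zeb2 (100.6) and Nfib (60.6) had 2 each, and both Zeb2 peaks lay far upstream, at 1070 and 1379 kb. Of the forkhead family 9 of 33 genes had one (27.3%, interval 13.3 to 45.5), and 11 of their 158 peaks were strong, 6.96% (interval 3.53 to 12.1). Foxl1 (73.0 and 60.4) and Foxp4 (67.4 and 60.7) had 2 each, Foxk1 had 1 of 124.6 and Foxd1 1 of 88.5. Foxf1, the closest relative of Foxf2, had 1 of 81.5, 103.3 kb upstream, with a GTAAACA match. The Foxl1 peaks lay 0.397 and 1.09 kb upstream of its TSS, in the same gene cluster as Foxf1.

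Genes of adhesion and migration had a strong peak at 10 of 33 (30.3%, interval 15.6 to 48.7), yet 12 of their 528 peaks were strong, 2.27% (interval 1.18 to 3.94), an interval that includes the 3.44% of the whole list. Plxna2 (76.3), a semaphorin receptor, and Robo1 (70.6), a Slit receptor, had 2 each, and the ephrin receptor gene Epha4 (114.6) and the secreted guidance gene Sema3c (93.6) had 1 each. Cartilage and bone genes had one at 4 of 18 (22.2%), namely Sox5 (101.0 and 95.6), Sox9 (90.4), Sox6 (70.8) and Runx2 (69.4), all regulators of skeletal cells. Of that list's 123 peaks 5 were strong, 4.07% (interval 1.33 to 9.23), near the 3.44% of all peaks.

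Among the lists for other cell types, pericyte and smooth muscle genes had a strong peak at 2 of 16 (interval of the share 1.55% to 38.3%). These were Ednra, an endothelin receptor (71.2 and 60.6), and Myocd, a smooth muscle co-activator (61.0). Endothelial genes had one at 2 of 20 (interval 1.23% to 31.7%), Erg (158.1) and Cdh5 (64.1). Both intervals include the 3.34% of all genes. Of the pericyte and smooth muscle list's 34 peaks 3 were strong, 8.82% (interval 1.86 to 23.7). Of the endothelial list's 61 peaks 2 were strong, 3.28% (interval 0.4 to 11.3), and both intervals include the 3.44% of all peaks. Myogenic genes had a strong peak at 1 of 31, Tcf21 (104.0), which encodes a factor of head muscle precursors, and epithelial genes at 1 of 25, Grhl2 (68.1). Ribosomal protein genes had one at 1 of 30, the promoter peak of Rps14, and none of the 16 liver genes had one. The last 4 of these lists lay at 3.23%, 4.0%, 3.33% and 0%, beside 3.34% of all genes.

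**Figure D5:**
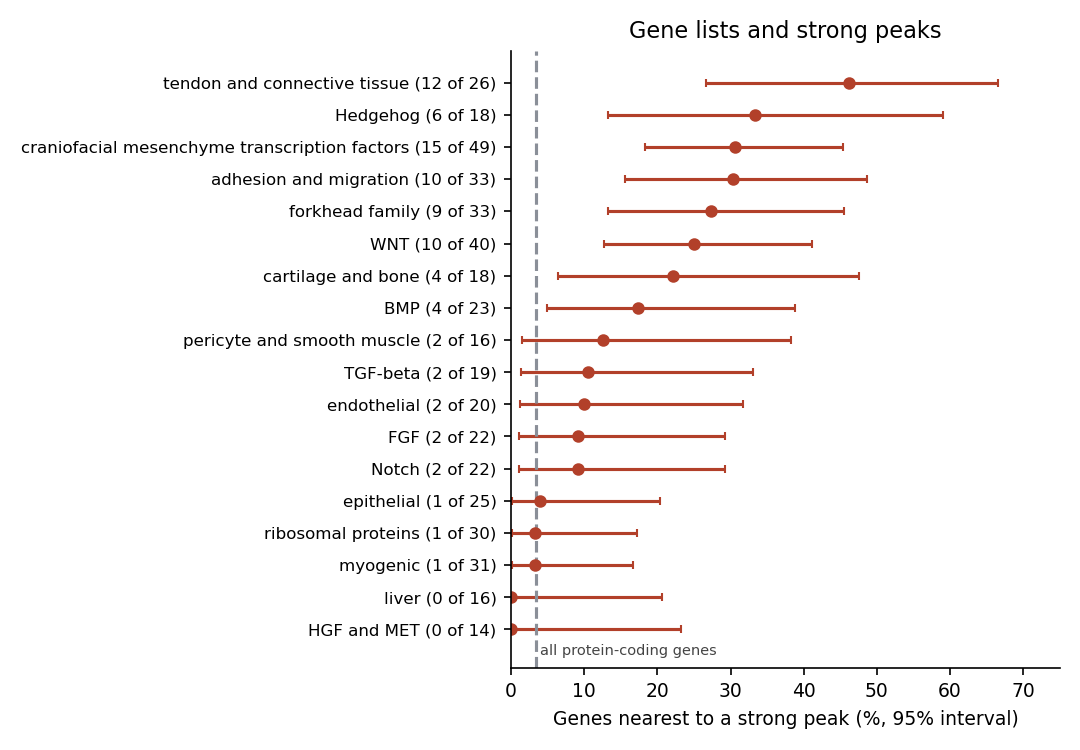
Share of the genes of each list that were nearest to at least 1 strong peak (horizontal axis, %; points with exact 95% intervals over genes), with the numbers of genes in brackets, and the share of all protein-coding genes as a dashed line. Tendon and connective tissue genes stand highest at 46.2%, whereas the myogenic, epithelial, ribosomal and liver lists lie near the 3.34% of all genes. The lists also differ in genes nearest to a peak of any score. These were 80.8% of tendon and connective tissue genes, 89.8% of craniofacial mesenchyme factors and 100% of adhesion and migration genes. They were 13.3% of ribosomal protein genes and 37.3% of all genes.

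The X chromosome held few strong peaks. It had 5 among its 367 peaks, 1.36% (interval 0.444 to 3.15), while the autosomes ranged from 2.29% on chromosome 3 to 4.65% on chromosome 18, and the Y chromosome had 0 of 7. The 5 lay nearest to Atp7a (79.1), a copper transporter gene, Sh3kbp1 (68.8), Plac1 (68.3), Tmem164 (64.3) and Stk26 (60), and the first 2 lacked the core. The sex of the embryos is not given, and its part in the share on X was not tested.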

How the data were processed

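Anti-FLAG ChIP-seq libraries (2) and an input library (1) were made from E12.5 tongues. Per the submitters' processing notes and the design text, the authors aligned reads to mm10 with Bowtie2 2.4.1, used SAMtools 1.7.1, and called peaks with HOMER against the input; caller parameters, depth and pooling of libraries are not given in these sources. The peak score is the authors' deposited score, on a scale that is not stated. The last column has a double name per the file headers and was taken for the focus ratio, a fraction deposited by the authors, since every peak is 212 bp wide. Coordinates are as deposited. Of 25707 peaks, 3 on a contig were left out. The file held 0 sample columns that went unused.

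Words (34 motifs) were searched on either strand in the central 200 bp of each peak and in windows 2000 bp away, in the GRCm38 sequence. The search was tested on simulated windows, where all 300 planted matches were found. Annotation was GENCODE M21 basic, with promoter before transcript end (from 100 bp before to 1000 bp after it), then coding exon, untranslated region, noncoding exon, intron, intergenic. Distances run between the peak centre and the nearest protein-coding TSS. Intervals are exact at 95%. No test was run, since the list holds no values per library. Python 3.11.15, pandas 2.3.3, scipy 1.17.1, pysam 0.24.0 and matplotlib 3.10.9 were used.

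The members and the 18 gene lists were chosen with earlier results of these data known. Named genes were those nearest to the 20 highest-scored strong peaks, the 10 with the most strong peaks, Foxf2 and Foxf1, every gene with a strong peak in the Hedgehog, TGF-beta, HGF and MET, and Notch lists, and up to 4 genes of each other list. Added to these were genes at the 10 highest promoter peaks, the 10 highest without the core, the 5 highest with CTCF sequence and the 5 highest on X. Peaks described for their arrays, runs or REST sequence, and any other gene named, were picked with their values in view. Other settings covered the score threshold, window, crowding, repeats, promoter width, transcripts and distances.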

Additional observations from a re-analysis of the deposited data

How the results depend on the processing

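Of 48 alternative values, 21 stayed within the interval or 1.5-fold range of the reported value and 27 moved beyond it. The share of strong peaks with the core was 92.2% at a score of 80 or more, 92.1% at 100 or more, 83.2% in the central 100 bp, 90.6% in 400 bp and 90.2% without repeat-masked bases, and that with GTAAACA was 48.3%, 49.7%, 36.8%, 45.3% and 50.1% in the same order. Promoters held 9.06% when taken from 2000 bp upstream to 500 bp downstream and 4.64% with protein-coding transcripts only. The share near a TSS was 30.4% with the starts of all transcripts and 11.2% within 5 kb. Another peak lay near 36.2% at a score of 80 or more, 33.3% at 100 or more, 20.7% within 5 kb and 4.3% with strong peaks only as neighbours. The changed windows, promoter bounds, transcripts, distances and neighbours were applied to the strong peaks only. These shares therefore cannot be set beside those given above for all peaks, and whether the contrasts with all peaks hold at these settings was not tested. Genes nearest to a strong peak numbered 1113, 323 and 157 at thresholds of 50, 80 and 100. Those nearest to 3 or more numbered 60, 2 and 0 at these thresholds, 5 with genes of all biotypes and 6 within 100 kb, so that the genes with several strong peaks depend on the threshold and on distant peaks. The median distance of the nearest match was 14 bp with GTAAACA only. The looser REST search, chosen after seeing the data, gave 8.49% of core-less strong peaks in place of 5.66%. The causes of these shifts were not tested beyond the change of setting itself.

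No paired analysis was possible because the peak list holds no values per library, and no library was left out for the same reason. Depth is unknown, so no error of the score and no limit for regions without a peak are given.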
